A study of Mus musculus with 6 samples.

Results

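The Hedgehog genes described here are the ligand gene Shh, its release gene Disp1, the receptor and antagonist genes Ptch1 and Hhip, the signal transducers Smo and Sufu, and the transcription factor genes Gli1, Gli2 and Gli3. They were chosen by gene symbol from the deposited table of gene counts. All 9 were found among its 22287 genes, and all 9 were among the 17305 genes with enough counts to be tested.

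Hedgehog ligands reach neighbouring cells and bind Patched receptors, which otherwise hold the membrane protein Smoothened inactive. Once Smoothened is active at the primary cilium, Sufu releases Gli proteins, and the balance of Gli activators (mainly Gli2) and repressors (mainly Gli3) sets target gene transcription. Gli1, Ptch1 and Hhip are themselves targets, so their transcripts are widely used as readouts of the pathway, and Patched and Hhip also bind ligand and limit its spread. In the growing tooth, Shh is made by dental epithelium, and Gli1 marks responding mesenchymal cells at the root apex that include root progenitors.

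RNA was isolated from apical tissue of lower first molars of C57BL/6 mouse pups at postnatal day 7.5, and libraries of 75-cycle single-end reads were sequenced. The mutant group had the genotype Gli1-CreER;Arid1a fl/fl (3 libraries, replicates 3, 4 and 5). The control group had the genotype Arid1a fl/fl (3 libraries, replicates 2, 3 and 5). Both groups carried floxed alleles of Arid1a, which encodes a subunit of the BAF chromatin remodelling complex, and the treatment text, given for every library, describes an abdominal injection of tamoxifen on postnatal day 3.5 with a dose of 1.5 mg for each 10 g of body weight.

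CreER is a recombinase activated by tamoxifen, and in the mutants it was driven by Gli1, a gene of the pathway measured here. In a widely used line of this name the recombinase sits in the Gli1 gene itself and disrupts that copy, and the labels do not say which line was used. Because the mutants alone carried Gli1-CreER, an effect of this allele and an effect of Arid1a deletion cannot be told apart for any value below. Whether each library holds the tissue of 1 animal or of several is not in the labels. The p-values thus reflect differences among these 6 libraries, which may be technical.

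Library totals were 20453247 to 24255352 estimated counts. Levels are given in CPM, counts scaled to a common library size with TMM factors (trimmed mean of M values), and a gene was called when its adjusted p was under 0.05 in edgeR's quasi-likelihood test with Benjamini-Hochberg adjustment over all tested genes. Arid1a had 120, 134 and 130 CPM in mutant replicates 3, 4 and 5, against 210, 202 and 204 CPM in control replicates 2, 3 and 5, and it was called lower (log2 fold change -0.68, SE 0.07, adjusted p = 0.0129). Arid1a missed the threshold in the fits that left out control replicate 2, at an adjusted p of 0.0506, and control replicate 3, at an adjusted p of 0.0529. It also missed it with the replicate number as a block (adjusted p = 0.0769) and with the level of erythroid markers as a term (adjusted p = 0.0765), so 14 of 18 alternative analyses called it. Defining markers of the dissected tissue were present in every library. The odontoblast gene Dspp had 6911 to 9983 CPM in mutants and 8586 to 9575 CPM in controls, and the epithelial keratin gene Krt14 had 512 to 972 CPM in mutants and 628 to 809 CPM in controls.

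Of the 9 Hedgehog genes, Gli1 was lower in the mutants, and the other 8 did not pass the test. No member was called higher by edgeR, and 0 were higher at an unadjusted p under 0.05, while 3 (Gli1, Gli2 and Ptch1) were lower at that level, which 7.13% of all tested genes passed as higher and 7.83% as lower. DESeq2 and limma-voom likewise called Gli1 alone among the 9. Across all tested genes, 1.2% were called lower, 0.659% were called higher and 1.86% were called in either direction. In 3 members each mutant library lay below each control library, where 10.8% of all tested genes had that order and 21.3% had groups that did not overlap in either direction. The median log2 fold change was -0.08 over the 9 members and 0.01 over all tested genes. The members' median moved with the analysis. It was -0.37 with the level of erythroid markers as a term and -0.19 with the replicate number as a block. It was -0.14 when mutant replicate 4 was left out, -0.02 when control replicate 5 was and -0.01 when mutant replicate 3 was. With library totals alone it was 0.12, where the median over all tested genes was 0.21. In whole-tissue RNA, fewer cells of a type and less RNA per cell cannot be told apart.

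**Figure D1:**
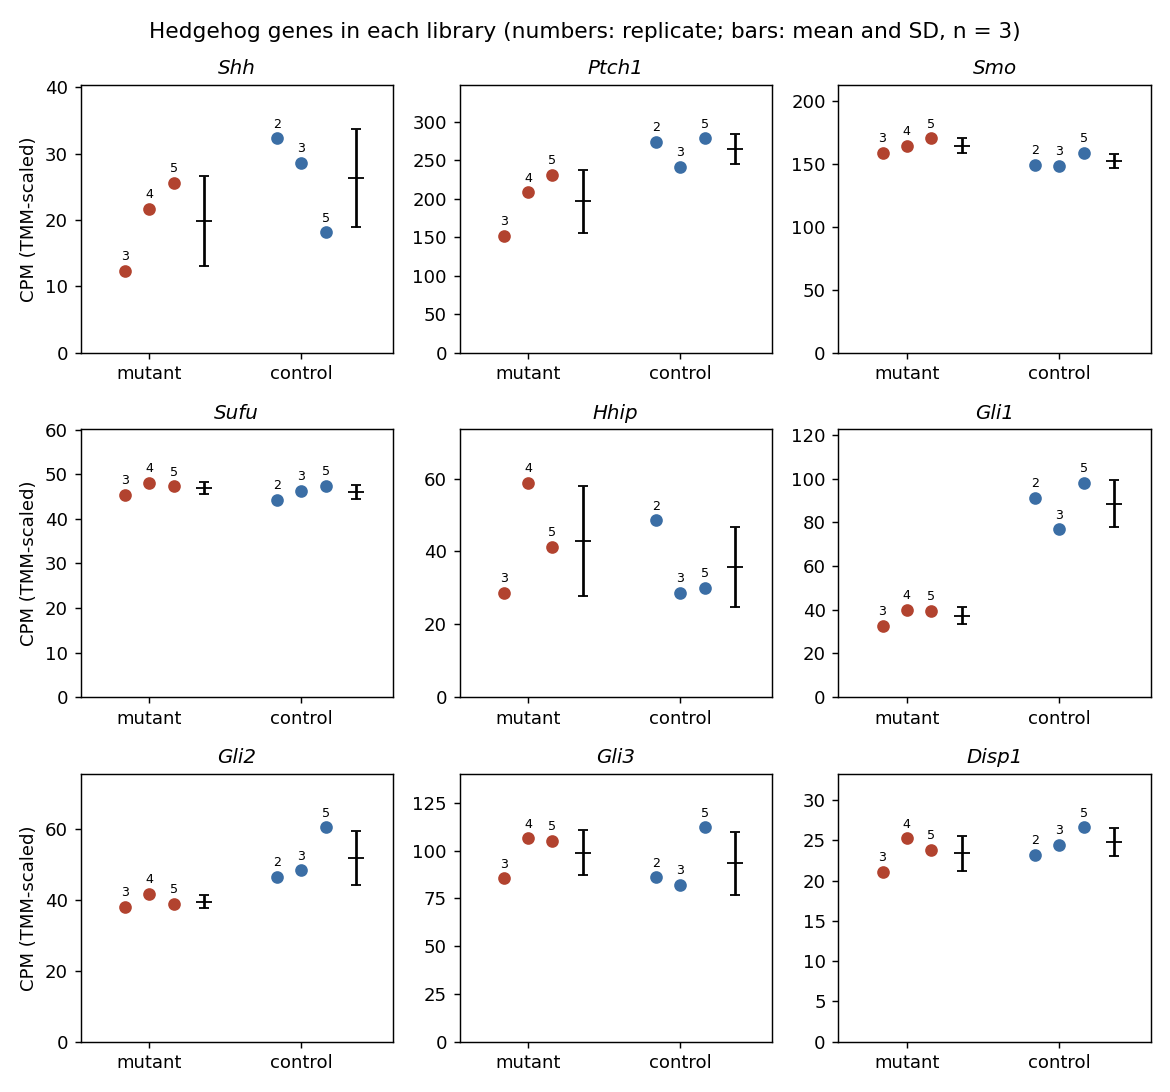
Level in CPM (TMM-scaled, linear axes from 0) of each of the 9 Hedgehog genes in every library, with mutant libraries at the left of each panel and control libraries at the right. Numbers give the replicate, and bars give the mean and SD (n = 3 each). Gli1 shows the widest gap between the groups, at 32.7 to 39.8 CPM in mutants and 76.7 to 98.0 CPM in controls.

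Shh encodes Sonic hedgehog, the ligand of the pathway in dental epithelium. In mm10, the build of all gene positions here, it is a protein-coding gene of the minus strand of chromosome 5, with its ends at 28456815 and 28467256. Its level was 12.3, 21.7 and 25.6 CPM in mutant replicates 3, 4 and 5, against 32.3, 28.6 and 18.1 CPM in control replicates 2, 3 and 5. The groups overlapped, because control replicate 5 lay below 2 of the mutant libraries, and mutant replicate 3 was the lowest of all 6. Shh averaged 19.9 ± 6.82 CPM in mutants and 26.3 ± 7.35 CPM in controls (SD, n = 3 each), and the difference did not pass (log2 fold change -0.41, 95% interval -1.08 to 0.26, adjusted p = 0.577).

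The level of epithelial keratins and junction genes was set beside that of Shh. The summed level of 12 dental epithelium markers was 3717, 3020 and 2171 CPM in mutant replicates 3, 4 and 5, against 2870, 3771 and 3791 CPM in control replicates 2, 3 and 5. Thus mutant replicate 3 and control replicate 5 each had the lowest Shh and the highest epithelial sum of their group, though control replicates 3 and 5 nearly tied in the sum. Its largest parts were Krt5 (690 to 1198 CPM in mutants and 969 to 1235 CPM in controls) and Krt14, and single markers differed. Of the 3 epithelial markers with the smallest p from edgeR, Krt15 was highest among mutants in replicate 3, and Krt17 and Esrp1 in replicate 4. With the epithelial level, taken as the mean log2 level of the 12 markers and not their sum, as a term in edgeR's model, the Shh difference was -0.81 on the log2 scale (SE 0.21, adjusted p = 0.111). It remained uncalled. Of those 12 markers, 0 were called by edgeR in either direction, against 1.86% of all tested genes, and none was at 0 in all libraries. Each mutant library lay below each control library in 4 of the 12 (Krt15, Krt17, Cdh1 and Esrp1), against 10.8% of all tested genes, and above in 0. The median log2 fold change of the 12 was -0.28, with 9 below 0 and 3 above. The 9 ameloblast markers, genes of the cells that make enamel, summed to 69010 to 115195 CPM in mutants and 179495 to 278509 CPM in controls, most of it from Amelx and Ambn. Of the 9, 3 (Amelx, Mmp20 and Sp6) were called lower, and the other 6 were not called, with log2 fold changes of -0.98 for Enam, -0.78 for Ambn, 0.42 for Klk4, 0.59 for Slc24a4, 0.79 for Amtn and 0.93 for Odam. Among all tested genes, 1.2% were called lower. In 5 of the 9 ameloblast markers (Amelx, Ambn, Enam, Mmp20 and Sp6) each mutant library lay below each control library, an order seen in 10.8% of all tested genes. In the 4 with a log2 fold change above 0 the groups overlapped. The part of these cells in the Shh level was not tested.

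Disp1 encodes Dispatched, the membrane protein that lets lipid-modified ligand leave the producing cell. It is located on chromosome 1 from 183086266 to 183221522 on the minus strand. Its level was 21.1, 25.2 and 23.8 CPM in mutant replicates 3, 4 and 5, against 23.2, 24.5 and 26.6 CPM in control replicates 2, 3 and 5. The groups overlapped, and the log2 fold change was -0.08 (95% interval -0.31 to 0.15, adjusted p = 0.760).

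Ptch1 encodes the main Hedgehog receptor and is induced by the pathway it restrains. It occupies chromosome 13 from 63508328 to 63573598 on the minus strand. Its level was 152, 209 and 231 CPM in mutant replicates 3, 4 and 5, against 274, 242 and 279 CPM in control replicates 2, 3 and 5. Each mutant library lay below each control library, yet mutant replicate 5 and control replicate 3 were close, and the mutants spread more widely (197 ± 40.8 CPM) than the controls (265 ± 20.0 CPM, SD, n = 3 each). The log2 fold change was -0.43 (95% interval -0.77 to -0.08), with an unadjusted p of 0.0219 from edgeR and an adjusted p of 0.226, so Ptch1 did not pass. Without mutant replicate 3, its lowest library, the log2 fold change was -0.27 (adjusted p = 0.247).

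Hhip encodes a cell-surface and secreted protein that binds Hedgehog ligands and is also a target gene. It lies on chromosome 8 from 79965851 to 80058006 on the minus strand. Its level was 28.6, 58.8 and 41.2 CPM in mutant replicates 3, 4 and 5, against 48.5, 28.7 and 30.0 CPM in control replicates 2, 3 and 5. Hhip varied most within groups in relative terms, with an SD of 35.3% of the mean in mutants and 31.1% in controls, and the groups overlapped widely. The log2 fold change was 0.26 (95% interval -0.39 to 0.92, adjusted p = 0.736). Without mutant replicate 4, its highest library, it was -0.033, and without control replicate 2, the highest control, it was 0.55 (adjusted p = 0.978 and 0.424).

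Smo encodes Smoothened, which passes the signal across the membrane. It is found on chromosome 6 from 29735503 to 29761365 on the plus strand. Its level was 158, 164 and 170 CPM in mutant replicates 3, 4 and 5, against 149, 149 and 159 CPM in control replicates 2, 3 and 5. The groups overlapped only through mutant replicate 3 and control replicate 5. The log2 fold change was 0.11 (95% interval -0.05 to 0.27, adjusted p = 0.517).

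Sufu encodes the cytoplasmic protein that holds Gli factors inactive. It lies on chromosome 19 from 46396896 to 46488804 on the plus strand. Its level was 45.3, 48.0 and 47.2 CPM in mutant replicates 3, 4 and 5, against 44.3, 46.2 and 47.3 CPM in control replicates 2, 3 and 5. Sufu had the smallest relative spread of the 9, with an SD of 2.95% of the mean in mutants and 3.39% in controls. Its log2 fold change was 0.03, and the 95% interval of -0.13 to 0.19 was among the narrowest (adjusted p = 0.891).

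Gli1 encodes a transcriptional activator that is induced by Hedgehog signalling. The gene lies on chromosome 10 from 127329882 to 127341974 on the minus strand, with 13 exon blocks in GENCODE M21. Its level was 32.7, 39.8 and 39.3 CPM in mutant replicates 3, 4 and 5, against 91.1, 76.7 and 98.0 CPM in control replicates 2, 3 and 5. The lowest control library was well above the highest mutant library, and the spread within each group was small next to the gap. The fitted level in mutants was 42.1% of that in controls (95% interval 34.9% to 50.8%), a log2 fold change of -1.25 (SE 0.12, adjusted p = 0.00753). By p-value Gli1 ranked 14 among the 17305 genes tested. The table counts the whole gene, so the level does not say which exons the reads came from. In GENCODE M21, exons of Gli1 overlap those of Arhgap9 by 62 bases and of Gm47200 by 265 bases on the opposite strand. The sources used here do not give whether strand was used, and these neighbours averaged 49.5 and 7.71 counts per library, while the lowest Gli1 count was 847.

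The Gli1 call was lost in 2 of 18 alternative analyses, although all 18 gave a log2 fold change between -1.35 and -1.04. Without control replicate 2 the log2 fold change was -1.22 (adjusted p = 0.0506). With the level of erythroid markers as a term it was -1.35 (adjusted p = 0.0851). That term was the mean log2 level of 10 erythroid markers and not their sum. The sum stood apart between the groups, at 2426, 5595 and 3953 CPM in mutant replicates 3, 4 and 5, against 1867, 2010 and 1477 CPM in control replicates 2, 3 and 5. None of these 10 markers was at 0 in all libraries, and in the sum mutant replicate 3 was nearest to the controls. Of the 8 erythroid markers tested, 5 had each mutant library above each control library, against 10.6% of all tested genes. In Hbb-bt, Slc4a1 and Bpgm the groups overlapped. With the dental epithelium level as a term, Gli1 was called at -1.33 (adjusted p = 0.0114).

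Gli2 encodes the main activator that acts before Gli1 in the pathway. It is located on chromosome 1 from 118834132 to 119053619 on the minus strand. Its level was 37.9, 41.6 and 38.9 CPM in mutant replicates 3, 4 and 5, against 46.4, 48.2 and 60.3 CPM in control replicates 2, 3 and 5. Each mutant library lay below each control library, with control replicate 5 standing above the other controls. The log2 fold change was -0.39 (95% interval -0.64 to -0.14), with an unadjusted p of 0.00776 from edgeR and an adjusted p of 0.135, so Gli2 did not pass. Without control replicate 5 the log2 fold change was -0.26 (adjusted p = 0.251).

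Gli3 encodes the factor that is processed to the main repressor of Hedgehog targets. It lies on chromosome 13 from 15463235 to 15730026 on the plus strand. Its level was 85.5, 106 and 105 CPM in mutant replicates 3, 4 and 5, against 85.9, 81.9 and 112 CPM in control replicates 2, 3 and 5. The groups overlapped across most of their range, and the log2 fold change was 0.09 (95% interval -0.23 to 0.41, adjusted p = 0.835). Gli3 exons overlap 188 bases of Gm6556, a transcript on the opposite strand that averaged 153 counts per library, while the lowest Gli3 count was 1749.

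**Figure D2:**
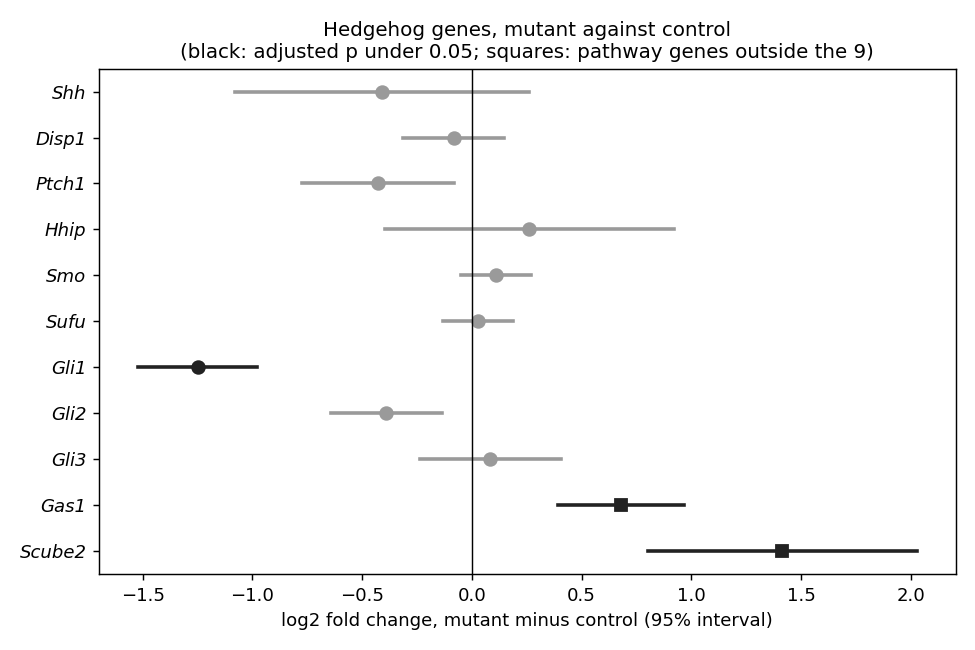
Log2 fold change (mutant minus control, points) with its 95% interval (lines) for the 9 Hedgehog genes (circles) and for Gas1 and Scube2 (squares), from edgeR's quasi-likelihood fit. Black marks an adjusted p under 0.05. Gli1 at -1.25 is the lowest, and its interval does not reach those of Gli2 and Ptch1. It overlaps the wide interval of Shh (-1.08 to 0.26).

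The pathway targets Gli1, Ptch1 and Hhip were then compared within libraries. The count of Gli1 relative to that of Ptch1 in the same library, which needs no library scaling, was 0.216, 0.191 and 0.170 in mutant replicates 3, 4 and 5, against 0.333, 0.317 and 0.352 in control replicates 2, 3 and 5. The mean log2 ratio was -2.38 ± 0.17 in mutants and -1.58 ± 0.07 in controls (SD, n = 3 each), a difference of -0.80. For Gli1 relative to Hhip the log2 ratio was 0.19, -0.56 and -0.07 in mutant replicates 3, 4 and 5, against 0.91, 1.42 and 1.71 in control replicates 2, 3 and 5, a difference of -1.49. In all 8 ratios of Gli1 to another member the mutant libraries lay below the control libraries, and the differences ran from -1.49 (to Hhip) to -0.80 (to Ptch1). For Shh the groups nearly met, at a log2 ratio of 1.41 in mutant replicate 3 and 1.42 in control replicate 3. The exact two-sided permutation test gave p = 0.1 for each ratio and 0.1 after Benjamini-Hochberg adjustment over the 8, which is the smallest p that 3 against 3 libraries allow. The 8 ratios share the Gli1 count and so are not independent. Because Gli1 itself was far lower in mutants, its ratio to any gene with a small difference separates the groups in the same way. The order in the 8 ratios thus largely restates the Gli1 difference and is no separate result about the partners. Ratios of Gli1 to genes outside the members were not computed.

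**Figure D3:**
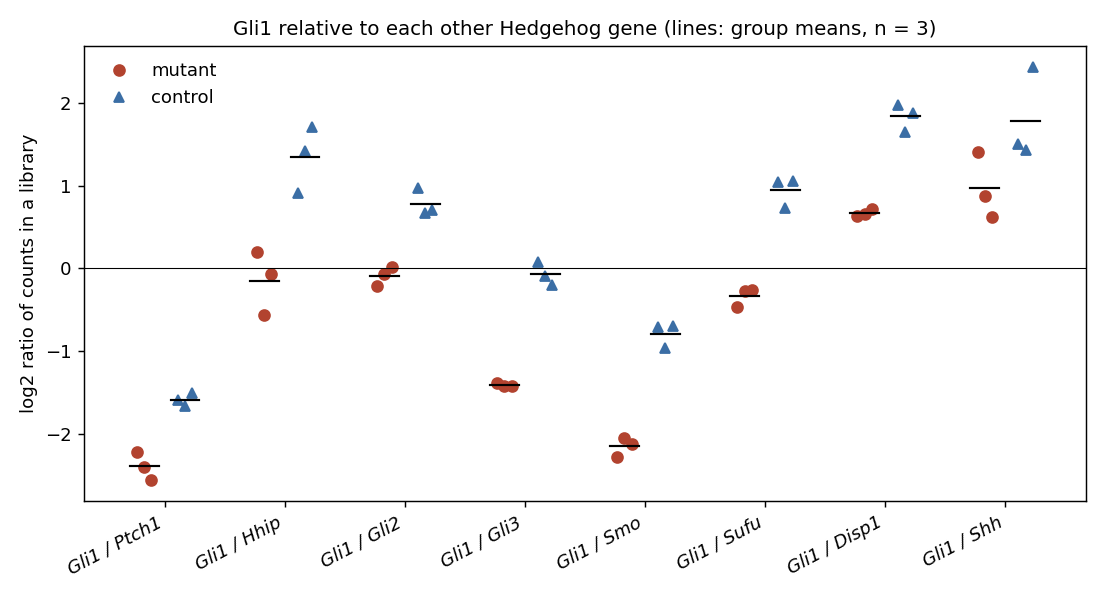
Log2 ratio of the Gli1 count to the count of each other member in the same library, with mutants (circles) left of controls (triangles) in each pair and lines at the group means (n = 3 each). The mutant points lie below the control points for every partner, but for Shh only just (1.41 in mutant replicate 3 and 1.42 in control replicate 3). The Gli1 to Gli3 ratio varies least among mutants (-1.42 to -1.38).

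Among the Gli factors, Gli1 had 0.383, 0.374 and 0.374 counts per Gli3 count in mutant replicates 3, 4 and 5, against 1.06, 0.937 and 0.874 in control replicates 2, 3 and 5. The mutant replicates differed by far less than the groups did. Relative to Gli2 the ratio was 0.864, 0.958 and 1.01 in mutant replicates 3, 4 and 5, against 1.96, 1.59 and 1.63 in control replicates 2, 3 and 5.

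Levels of different genes were compared per kilobase of exon, with exon lengths from GENCODE M21. In mutants the order was Smo (29.2 CPM per kb), Ptch1 (13.9), Gli3 (10.3), Gli1 (7.47), Shh (6.98), Sufu (6.09), Gli2 (5.74), Hhip (4.72) and Disp1 (4.48). In controls it was Smo (27.1 CPM per kb), Ptch1 (18.7), Gli1 (17.7), Gli3 (9.73), Shh (9.25), Gli2 (7.52), Sufu (5.97), Disp1 (4.74) and Hhip (3.93). Gli1 was thus next to Ptch1 in controls, where the ranges of Gli1 and Ptch1 overlapped, and near Shh in mutants, at 6.55 to 7.97 CPM per kb for Gli1 and 4.33 to 8.99 for Shh. Neighbours that also overlapped in controls were Gli3 with Shh, Shh with Gli2, and Disp1 with Hhip. In mutants the neighbours from Gli1 to Disp1 overlapped, and so did Ptch1 with Gli3, while Smo and Ptch1, and Gli3 and Gli1, did not. Divided by the longest transcript in place of all exons, Sufu stood higher, at 10.4 CPM per kb in mutants and 10.2 CPM per kb in controls. In mutants that placed Sufu above Gli1 (9.19) and Shh (6.98), and in controls above Shh (9.25). The order below Gli3, with the place of Gli1 in mutants, thus rests on the length used.

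**Figure D4:**
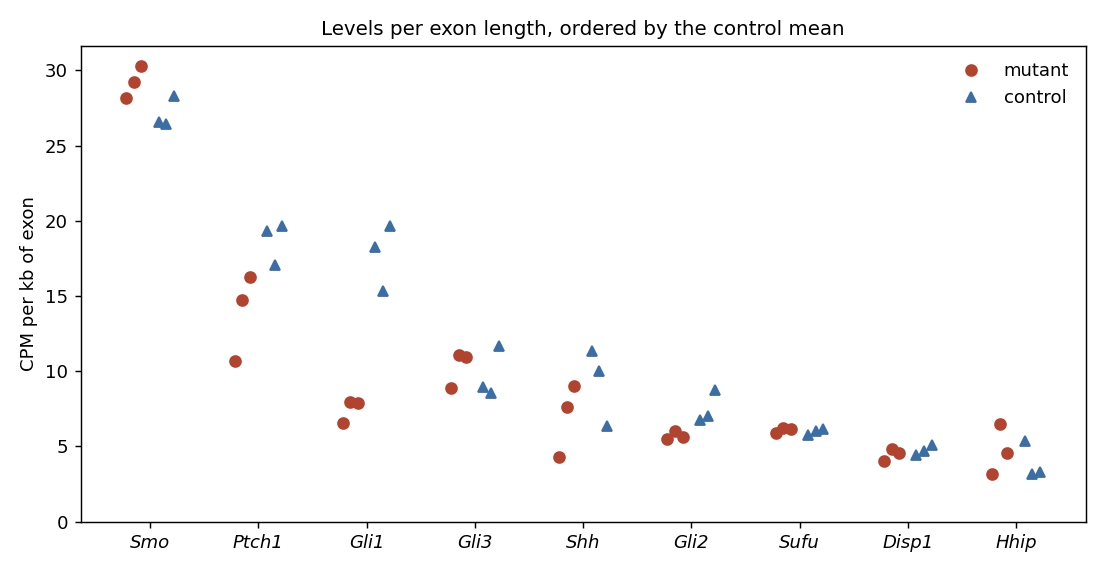
Level per kilobase of exon (CPM per kb, linear axis from 0) of the 9 Hedgehog genes in each library, with mutants (circles) left of controls (triangles), ordered by the control mean. Gli1 is at 15.4 to 19.6 CPM per kb in controls, in the range of Ptch1, and at 6.55 to 7.97 CPM per kb in mutants.

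Mutant replicate 3, whose title alone carries an extra number before the name, was the lowest mutant for all 9 members. Relative to its group mean on the log2 scale it stood at -0.62 for Shh, -0.52 for Hhip and -0.35 for Ptch1, but at -0.05 for Smo, -0.05 for Sufu and -0.06 for Gli2. Gli1 in this library was at -0.18. For some members another mutant stood about as far from the mean or farther: replicate 4 was at 0.52 for Hhip and 0.08 for Gli2, and replicate 5 at 0.05 for Smo. Without mutant replicate 3, Gli1 was still called (log2 fold change -1.16, adjusted p = 0.0153), and the Shh difference was -0.16 (adjusted p = 0.804). The median SD as a share of the mean was 10.6% over the members in mutants and 12.3% in controls, against 10.8% and 10.7% over all tested genes.

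Promoter windows are shown for Ptch1 and Hhip, pathway targets whose fold changes had opposite signs, and for Gli2, whose mutant libraries all lay below the controls. The RefSeq table of promoters (build GRCm38.p6) matched 7 of the 9 members, and Gli1 and Shh were not matched. Each line gives the 250 bases before a RefSeq start in the direction of the gene, outside GENCODE exons of that gene, with matches to the GLI core CCACCC, on either strand, in capitals.
Ptch1, chr13:63565736-63565985, minus strand: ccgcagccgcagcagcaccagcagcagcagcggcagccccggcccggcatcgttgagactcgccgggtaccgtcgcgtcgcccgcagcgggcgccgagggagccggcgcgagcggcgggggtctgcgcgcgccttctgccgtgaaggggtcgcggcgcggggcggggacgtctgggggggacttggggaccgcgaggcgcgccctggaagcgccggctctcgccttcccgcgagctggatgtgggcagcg
Hhip, chr8:80058009-80058258, minus strand: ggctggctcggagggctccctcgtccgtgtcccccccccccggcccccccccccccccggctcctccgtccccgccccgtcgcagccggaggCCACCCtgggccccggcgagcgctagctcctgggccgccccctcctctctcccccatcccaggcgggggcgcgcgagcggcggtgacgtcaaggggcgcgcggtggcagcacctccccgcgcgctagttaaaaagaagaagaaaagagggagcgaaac
Gli2, chr1:119053620-119053869, minus strand: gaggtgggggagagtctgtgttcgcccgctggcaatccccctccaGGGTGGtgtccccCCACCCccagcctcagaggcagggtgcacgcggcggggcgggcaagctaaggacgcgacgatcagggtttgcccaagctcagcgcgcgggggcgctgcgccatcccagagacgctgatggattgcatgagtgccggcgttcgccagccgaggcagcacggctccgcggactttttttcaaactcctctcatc
The Ptch1 window lies within the gene as GENCODE draws it, before a downstream start. The GLI consensus GACCACCCA, searched on both strands, was found in 0 of the 8 windows of the members and in 0.225% of 32851 windows of that length. Its core CCACCC, which is part of the consensus, was found in 4 of the 8 windows (Smo, Hhip, Gli2 and Gli3) and in 28.1% of all windows. A match is a description of the letters and not a binding site.

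Among 29 other pathway genes, 2 were called higher and 27 did not pass, with a median log2 fold change of 0.01. Of all tested genes, 0.659% were called higher and 1.2% lower. At an unadjusted p under 0.05 from edgeR, 5 of the 29 were higher and 5 lower, against 7.13% and 7.83% of all tested genes. DESeq2 called 2 higher and 2 lower, against 2.11% and 2.89% of the genes it tested.

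The risers were the co-receptor gene Gas1 and Scube2, whose product aids ligand release. Gas1 averaged 134 ± 5.29 CPM in mutants and 83.5 ± 14.4 CPM in controls (adjusted p = 0.0443), and Scube2 averaged 5.53 ± 1.41 CPM in mutants and 2.06 ± 0.515 CPM in controls (adjusted p = 0.0465, SD, n = 3 each, edgeR). Both calls were lost in each of the 6 analyses without a library, with adjusted p from 0.0620 to 0.139 for Gas1 and from 0.0650 to 0.141 for Scube2. They were also lost with the replicate block (adjusted p = 0.118 for Gas1 and 0.159 for Scube2), the erythroid term (0.381 and 0.367) and the epithelial term (0.0708 and 0.0663), and Scube2 was not called by limma-voom (0.0576). Gas1 exons overlap 589 bases of Gm48488 on the opposite strand, which averaged 77.8 counts per library.

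Of 15 other genes listed as Hedgehog targets in other tissues, 0 were called by edgeR in either direction, against 1.86% of all tested genes. Their median log2 fold change was 0.17. At an unadjusted p under 0.05, 3 of the 15 were higher and 0 lower, and DESeq2 called 2 higher and 0 lower, where 7.13% and 7.83% of all tested genes passed the unadjusted level and DESeq2 called 2.11% and 2.89%. The smallest p-values belonged to Sfrp1, which encodes a secreted Wnt antagonist, and to the forkhead transcription factor genes Foxf1 and Foxf2. Sfrp1 had 163, 205 and 168 CPM in mutant replicates 3, 4 and 5, against 125, 107 and 133 CPM in control replicates 2, 3 and 5 (log2 fold change 0.56, SE 0.12, adjusted p = 0.0657). Foxf1 averaged 93.4 ± 4.87 CPM in mutants and 74.4 ± 7.18 CPM in controls (log2 fold change 0.33, adjusted p = 0.125), and Foxf2 averaged 45.7 ± 8.21 CPM in mutants and 34.6 ± 4.53 CPM in controls (log2 fold change 0.40, adjusted p = 0.236, SD, n = 3 each). In these 3 genes each mutant library lay above each control library, as in 10.6% of all tested genes. Sfrp1 passed with DESeq2 (adjusted p = 0.000868) and with library totals alone (0.0208), Foxf1 with DESeq2 (0.0459) and Foxf2 with library totals alone (0.0444).

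Among 23 genes of transport into and along the primary cilium, where the pathway signals, 0 were called by edgeR in either direction, with 0 higher and 1 lower at an unadjusted p under 0.05, and 0 were called by DESeq2. Of all tested genes, edgeR called 1.86%, and 7.13% were higher and 7.83% lower at the unadjusted level. The smallest p-value in that list belonged to Tulp3, which encodes a ciliary trafficking protein, at 33.9 ± 2.06 CPM in mutants and 41.6 ± 1.69 CPM in controls (log2 fold change -0.29, adjusted p = 0.116, SD, n = 3 each). The next were Dync2li1, a dynein chain gene, at 0.22 and the transport gene Ift122 at -0.18 on the log2 scale.

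The genes nearest to Gli1 in their pattern over the 6 libraries were Mapkbp1, Rab27a, F2r, Dpf3 and Glrx. Nearness was the root mean square difference of log2 CPM after each gene was centred on its own mean, among 11205 other named genes that averaged 5 CPM or more, and it was 0.11 to 0.14 for these 5. All 5 were called lower, which follows from their likeness to a gene that was called. In the 6 fits without a library, Glrx was called in 5, Mapkbp1 and F2r in 3, and Rab27a and Dpf3 in 2. F2r, a thrombin receptor gene, averaged 326 ± 44.1 CPM in mutants and 707 ± 79.8 CPM in controls, and Rab27a, which encodes a small GTPase of vesicle docking, averaged 8.88 ± 1.81 CPM in mutants and 21.0 ± 3.08 CPM in controls (SD, n = 3 each). Dpf3 encodes a histone-reading BAF subunit and averaged 3.58 ± 0.577 CPM in mutants and 7.95 ± 0.661 CPM in controls. Of 24 BAF genes tested, 2 were called lower, Dpf3 and the floxed gene Arid1a itself, and 22 were not called. Among all tested genes, 1.2% were called lower.

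Among the other members, Ptch1 ranked 267 and Gli2 ranked 390 of 11205 genes in nearness to Gli1, and Hhip ranked 10210. The genes nearest to Ptch1 were Arglu1, Ogt, Zmym6, Gabbr1 and Tmem150a, at 0.07 to 0.08, and none of these 5 was called. Their log2 fold changes ran from -0.47 for Ogt, which encodes the enzyme that adds N-acetylglucosamine to nuclear and cytoplasmic proteins, to -0.35 for Tmem150a. The genes nearest to Shh were Polq, Itpripl1, Idua, Mtcp1 and Ago3, at 0.13 to 0.20, and none of these was called either.

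Markers of other cell types in the dissected tissue moved with the groups to differing extents. Summed macrophage markers (10 genes) were 428 to 567 CPM in mutants and 317 to 414 CPM in controls, and follicle and periodontal ligament markers (11 genes) were 4457 to 5401 CPM in mutants and 4188 to 4350 CPM in controls. Dental mesenchyme markers (12 genes) summed to 2769 to 2871 CPM in mutants and 2602 to 2786 CPM in controls, and odontoblast markers (9 genes) to 43801 to 53699 CPM in mutants and 49769 to 51627 CPM in controls. Vim alone gave 1366 to 1511 CPM of the mesenchyme sum in mutants and 1365 to 1555 CPM in controls. Col1a1 gave 34079 to 40507 CPM of the odontoblast sum in mutants and 38179 to 39937 CPM in controls. Igfbp5 gave 3121 to 3827 CPM of the follicle and ligament sum in mutants and 2886 to 3101 CPM in controls. These sums thus rest largely on single genes, and single markers of several lists stood apart. Of the 12 mesenchyme markers, 5 had each mutant library above each control library and 1 had it below, and Prrx1, a homeobox gene, was called higher at 93.8 ± 14.2 CPM in mutants and 56.8 ± 3.79 CPM in controls (adjusted p = 0.0299, SD, n = 3 each, edgeR). Of the 11 follicle and ligament markers, 6 had each mutant library above each control library, and the matrix protein genes Postn (348 to 409 CPM in mutants and 201 to 248 CPM in controls, adjusted p = 0.0262) and Tnn (30.9 ± 4.03 CPM in mutants and 15.5 ± 2.55 CPM in controls, adjusted p = 0.0262) were called higher by edgeR. All 10 macrophage markers had a log2 fold change above 0, and Cd68 was called higher by edgeR (18.7 ± 1.31 CPM in mutants and 12.4 ± 1.33 CPM in controls, adjusted p = 0.0498). Each mutant library lay above each control library in 7 macrophage markers and in 3 odontoblast markers (Bglap, Dmp1 and Sp7, none called). That order held in 2 endothelial and 2 Schwann cell markers, and 2 other Schwann cell markers had the reverse. Among all tested genes 10.6% had that order and 10.8% the reverse, and edgeR called 0.659% higher. The Schwann cell markers (8 genes) summed to 117 to 128 CPM in mutants and 129 to 148 CPM in controls. Endothelial markers (9 genes) summed to 338 to 371 CPM in mutants and 294 to 345 CPM in controls, osteoclast markers (8 genes) to 140 to 235 CPM in mutants and 145 to 192 CPM in controls, and muscle markers (8 genes) to 10.8 to 19.4 CPM in mutants and 12.4 to 36.1 CPM in controls. The part of these cell types in the Hedgehog values was not tested beyond the erythroid and epithelial terms given above.

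**Figure D5:**
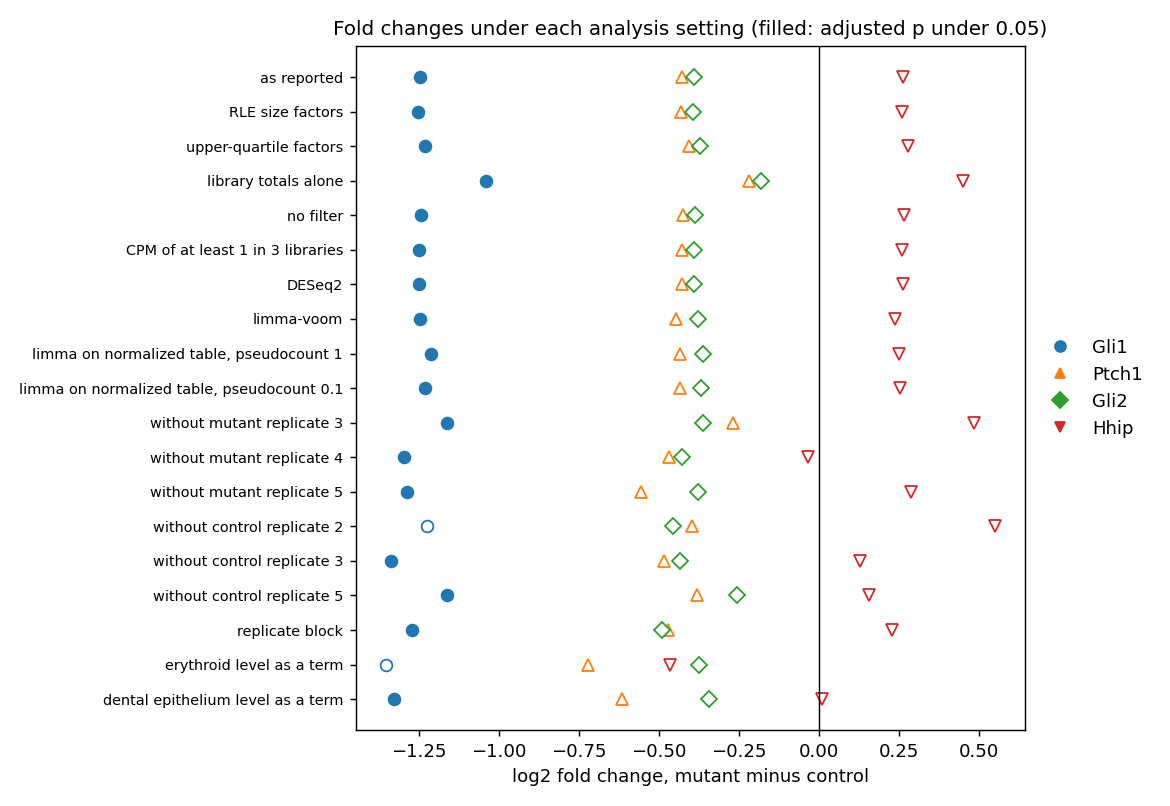
Log2 fold change (mutant minus control) of Gli1, Ptch1, Gli2 and Hhip under each analysis setting, one setting a row. Filled symbols have an adjusted p under 0.05. Gli1 lies between -1.35 and -1.04 in every row, and Hhip lies on both sides of 0.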

How the data were processed

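The members and gene lists were chosen with earlier results of these data known. Per the labels' protocols, RNA with integrity numbers above 9 was sequenced; per the submitters' processing notes, tools included STAR 2.6.1d and Partek on mm10, in roles not given. The authors deposited expected counts per gene, which need not be whole, in a file named for expectation-maximisation quantification, and a normalized signal for 18665 genes, used in alternatives. Reads of near-identical genes are shared by estimate.

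Expected counts were rounded, filtered by filterByExpr, scaled by TMM and tested by edgeR 4.0.16 in R 4.3.3, with all 6 libraries and no covariate. SEs are log2 fold changes, without sign, over the square root of F. Gene positions are from GENCODE M21, whose starts equal those of the file. Within groups, pairs of libraries gave chi-square values of 24.5 to 45.0 for each degree of freedom, so none was a copy. Precision rests on 3 libraries a group. Scripts were tested on simulated data.

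Named genes were the 9 members, Arid1a, the 5 genes nearest in pattern to Gli1, Ptch1 and Shh, and in each list the called members or otherwise up to 3 with the smallest p. One item of the pathway and target lists is not reported here and is left out of their counts. Alternatives were other scalings (RLE, upper quartile, library totals), filters, DESeq2 1.42.0, limma-voom (limma 3.58.1), limma on log2(signal + 1) and log2(signal + 0.1), each library left out, a replicate block, marker levels as terms, and thresholds of 0.1 and 0.01. A marker level used as a term was the mean of log2(CPM + 1) over the markers of its list.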

Additional observations from a re-analysis of the deposited data

How the results depend on the processing

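Gli1 kept its direction in all 18 alternative analyses and was called in 16. Leaving out 1 library each gave -1.34 to -1.16 on the log2 scale, with the number of members called lower at 0 to 1; it was 0 without control replicate 2. With the erythroid level as a term Gli1 was at -1.35 and uncalled, so 0 members were called. The Gli1 to Ptch1 ratio differed by -0.89 to -0.72 and the Gli1 to Hhip ratio by -1.71 to -1.28 without 1 library. Of the 8 other members none was called in any alternative. The median over the 9 members was -0.37 with the erythroid term and -0.19 with the replicate block, against -0.08 as reported. The sign of some small differences turned: Disp1 was at 0.12 with library totals alone, Sufu at -0.015 and Gli3 at -0.016 with the replicate block, and with the erythroid term Sufu was at -0.012, Hhip at -0.46 and Gli3 at -0.0047. Without 1 library, Hhip was at -0.033 to 0.55 and Idua at -0.28 to 0.074. Ift122 (0.031) and Idua (0.065) also turned with library totals alone. The cause was not tested.

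Counts over all genes moved more. The main counts were 114 higher and 208 lower. They were 411 and 109 with library totals alone, which moved the median over all tested genes from 0.01 to 0.21 on the log2 scale (79.0% of calls higher, against 35.4%), 360 and 493 with DESeq2, and 1 and 7 with the erythroid term. They were 272 and 400 at a threshold of 0.1, and 4 and 10 at 0.01. Without 1 library they were 1 to 105 higher and 10 to 138 lower, lowest without control replicate 2 and highest without mutant replicate 3.

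Replicate numbers 3 and 5 occur in both groups, and nothing in the labels ties them. The correlation of deviations was 0.20 for number 3 and -0.15 for number 5. With the replicate block, which leaves 1 residual degree of freedom, Gli1 was at -1.27 (adjusted p = 0.0177), the ratios differed by -0.80 (Ptch1) and -1.50 (Hhip), 1 member was called lower and 0 higher, and the counts were 19 and 71.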
